A study of Mus musculus with 6 samples.

Results

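Hedgehog signalling genes were examined in mouse embryos at E12.5 (embryonic day), in the whisker pad, a patch of facial skin that gives rise to the vibrissae. The 9 genes were chosen by name: the ligand Shh, the receptors and co-receptors Ptch1, Smo, Boc and Cdon, the ligand-binding inhibitor Hhip, and the transcription factors Gli1, Gli2 and Gli3. They are 9 of the 12393 genes that the platform annotation pairs with a probe set of their own, and they are read by 15 of 22626 mouse probe sets. The series holds 6 one-colour Affymetrix MOE430A arrays, 3 from wild-type embryos and 3 from embryos homozygous for a Trps1 mutation, each made from the whole pad of a separate embryo. The labels name neither the allele nor the part of the gene it alters. The Trps1 protein is a transcriptional repressor with a GATA-type zinc finger.

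Hedgehog ligands are secreted proteins that act on neighbouring cells. In their absence Ptch1 holds Smo inactive, and Gli3, and to a lesser extent Gli2, are cut to repressor forms. Ligand binding to Ptch1, aided by co-receptors such as Boc and Cdon, frees Smo, full-length Gli proteins enter the nucleus, and Gli1, Ptch1 and Hhip are switched on, the latter pair as feedback inhibitors. In hair and vibrissa follicles Shh is made in the epithelial placode, while Ptch1 and Gli1 respond in the placode and in the dermal condensate beneath it. Where a small group of cells makes a transcript, RNA of the whole pad dilutes it, and fewer cells of a type and less RNA per cell cannot be told apart in such samples.

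Differences are given as mutant minus wild-type, in units of log2(signal + 16). Group signals are written as mean ± SD over 3 arrays, and adjusted p-values come from limma, fitted and adjusted over all 22626 probe sets. Median signals ran from 90.5 to 101.5 between arrays. Bacterial control probe sets, whose RNA is not in mouse tissue, read 0.4 to 33.8, and 33.8 is used here as the limit of background. The 3 wild-type arrays read Trps1 at 807.6, 1061.4 and 748.1 and the 3 mutant arrays at 1297.3, 1491.9 and 1506.7 (difference 0.72, SE 0.18, limma adjusted p = 0.677). All mutant values lay above all wild-type values, and since the altered part of the gene is not given, this level does not check the labels. On the first principal component both replicate 3 arrays stood apart, at 36.8 (wild-type) and 31 (mutant). Wild-type replicates 1 and 2 lay at -4.89 and -5.8, those of the mutant at -30.8 and -26.3. The ratio of 3′ to 5′ actin control signal was 1.19 and 1.35 on the replicate 3 arrays and 1.07 to 1.13 on the others. Xist, the RNA of the inactive X chromosome, read 461.5 on wild-type replicate 3 against 44 to 93.7 on the other 5 arrays. Eif2s3y, a gene of the Y chromosome, read 11.9 there against 207.3 to 272.3. By these readings wild-type replicate 3 was female and the others male, and the part of sex was not tested. Of the facial mesenchyme markers Prrx1, Twist1, Pdgfra, Alx4, Msx1, Col1a1 and Col1a2, all but Alx4 were above 33.8 on every array, as were 9 of 9 epidermis markers.

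Of the 9 genes, 6 were read well above background by at least 1 probe set on every array: Ptch1, Smo, Boc, Gli1, Gli2 and Gli3. Shh and Hhip had both group means under 33.8 at each of their probe sets, as did Cdon. No member passed in either direction. The count was 0 of 15 probe sets by limma with Benjamini-Hochberg adjustment, where 0% of all probe sets passed, and 2 of 15 had an unadjusted p under 0.05, where 5.27% of all probe sets did. By the methods' t-test, 2 of 15 had an unadjusted p within 0.05, against 5.03% of all probe sets, and 0 of 15 also met the study's limit of 1.5-fold, against 1.59%. None of the 15 is among the 65 probe sets of the authors' deposited table. The groups did not overlap at 2 of 15 probe sets, against 10.2% of all. At both, 1 each of Smo and Boc, the mutant lay below, against 4.76% of all probe sets, and 0 lay above, against 5.41%.

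**Figure D1:**
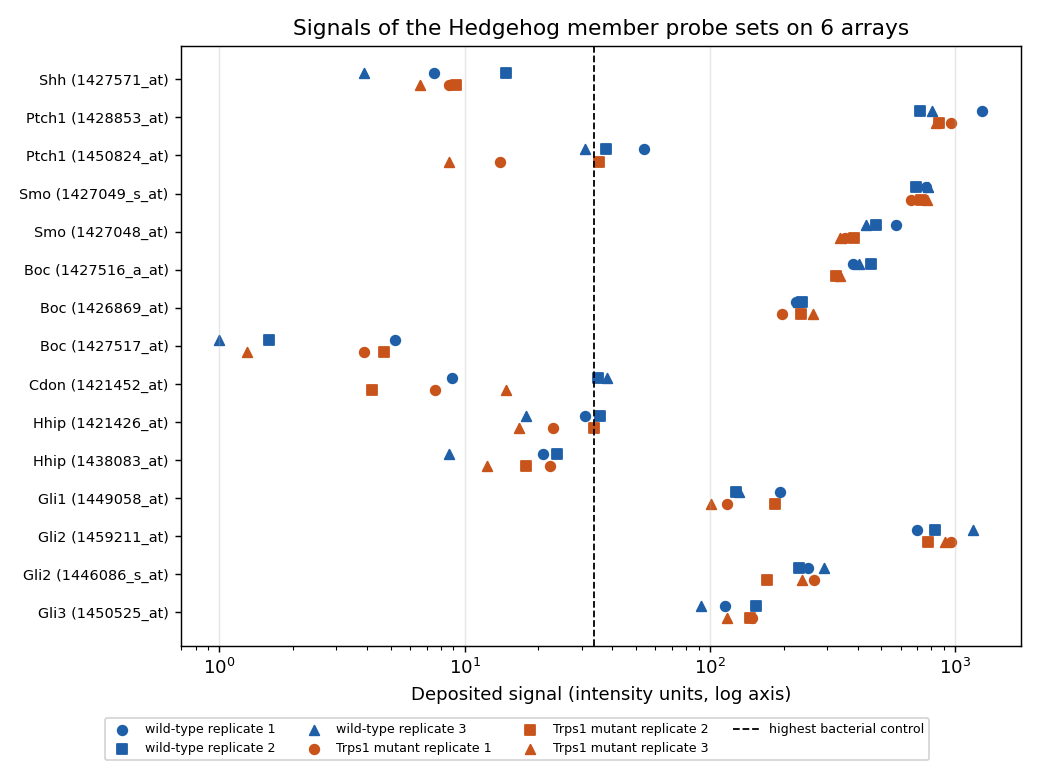
Deposited signal of the 15 member probe sets (log axis, intensity units) on each of 6 arrays, with wild-type in blue, mutant in orange and 1 marker shape per replicate number. The dashed line is the highest bacterial control at 33.8: Shh lies to its left on all 6 arrays, and Ptch1, Smo, Boc, Gli1, Gli2 and Gli3 have at least 1 probe set to its right on all 6.

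The ligand Shh was not detectable above background in whisker pad RNA. Its probe set (1427571_at) read 7.5, 14.7 and 3.9 in wild-type and 8.6, 9.2 and 6.6 in mutant embryos. The groups overlapped, and every one of the 6 readings lay in the range of the bacterial controls. The difference of -0.012 (SE 0.20, limma adjusted p = 0.999) therefore bears on background readings, and these arrays give no measure of Shh in either genotype. The other ligands were also dim. Ihh, known for cartilage growth, read 31.9, 27.4 and 46.7 in wild-type and 6, 26.3 and 41.1 in mutant pads, while Dhh, a ligand of Schwann cells and gonads, read 40.6, 15 and 34.4 in wild-type and 47.1, 34.6 and 29.8 in mutant pads. At these probe sets both straddled the limit in both groups, and the other Dhh probe set read 1.9 to 6.2 on the 6 arrays. Hhat, the acyltransferase that adds a lipid to Hedgehog ligands, read 49.8 ± 17.0 and 41.3 ± 16.5, and Scube1, a secreted protein of the family that helps release ligand, read 49.4 ± 11.98 and 58.6 ± 20.3, with overlapping groups at both. Of the 5 measured genes for ligands and their release, all of them wider pathway genes, 2 were higher, 3 were lower and 0 passed.

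Ptch1, receptor and feedback target in one, was bright at 1 of its probe sets and near background at the other. The bright probe set (1428853_at) read 1291, 721 and 802.2 in wild-type pads. In mutant pads it read 959.1, 858.8 and 836.2. The mutant values all lay inside the wild-type range, which is set by replicate 1 at the top and replicate 2 at the bottom. The difference was -0.039 (SE 0.24, 95% interval -0.59 to 0.51, limma adjusted p = 0.997), so a change of up to 1.43-fold upward or to 0.66 of the wild-type level was within error. Without wild-type replicate 1 the difference was 0.21. The dim probe set (1450824_at) read 53.7, 37.8 and 30.9 in wild-type and 14, 35.2 and 8.6 in mutant pads. There 2 of 3 mutant arrays fell under the limit of background, the third overlapped the wild-type range, and the difference was -0.74 (SE 0.30, unadjusted p = 0.0398, limma adjusted p = 0.930). This was 1 of the 2 member probe sets with an unadjusted p under 0.05 in limma, and in an exact permutation test of the 6 arrays p = 0.2, where 0.1 is the smallest that 3 against 3 can give.

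The promoter of Ptch1 is shown with those of Hhip and Smo because the first pair are the standard direct targets of Gli proteins, of which 1 was bright and the other at background here, and Smo is, with Boc, 1 of the 2 members with a probe set whose groups did not overlap. Boc had no matched sequence. The sequences are from RefSeq (GRCm38.p6), 250 bases before to 50 bases after the annotated start, and were matched for 6 of the 9 members (Cdon, Gli2, Gli3, Hhip, Ptch1 and Smo). Capitals mark the 50 bases from the start onward, and each is written 5′ to 3′ on the gene's strand. Ptch1 lies at chr13:63565686-63565985 on the minus strand, Hhip at chr8:80057959-80058258 on the minus strand and Smo at chr6:29735247-29735546 on the plus strand.
Ptch1: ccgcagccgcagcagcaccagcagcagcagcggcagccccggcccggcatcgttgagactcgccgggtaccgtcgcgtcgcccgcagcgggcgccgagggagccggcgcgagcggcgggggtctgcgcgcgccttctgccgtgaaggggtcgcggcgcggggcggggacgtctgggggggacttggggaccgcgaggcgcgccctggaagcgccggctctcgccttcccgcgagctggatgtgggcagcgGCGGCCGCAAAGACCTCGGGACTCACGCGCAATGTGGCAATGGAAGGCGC
Hhip: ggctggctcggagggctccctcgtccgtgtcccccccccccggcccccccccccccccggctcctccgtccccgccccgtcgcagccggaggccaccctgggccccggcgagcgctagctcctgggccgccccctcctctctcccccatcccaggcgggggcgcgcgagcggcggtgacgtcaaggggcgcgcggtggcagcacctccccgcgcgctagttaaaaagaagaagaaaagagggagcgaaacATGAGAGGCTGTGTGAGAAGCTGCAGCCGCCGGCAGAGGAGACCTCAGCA
Smo: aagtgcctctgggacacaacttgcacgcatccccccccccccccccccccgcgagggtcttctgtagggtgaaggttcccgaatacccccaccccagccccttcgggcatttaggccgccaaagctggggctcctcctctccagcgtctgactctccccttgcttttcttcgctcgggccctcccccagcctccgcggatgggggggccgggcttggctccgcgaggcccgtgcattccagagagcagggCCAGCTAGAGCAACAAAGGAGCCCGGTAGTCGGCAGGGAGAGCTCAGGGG
The Gli consensus GACCACCCA was searched on both strands and was in 0 of the 6 windows, while it was in 0.253% of the 32851 promoters of this length. At so small a share nearly any 6 windows would hold 0, so this count does not set the members apart. The GC box GGGCGG, the binding motif of Sp1 and searched in the same way, occurred 1 time in the Ptch1 window, 2 times in Hhip and 0 times in Smo, and 35.7% of all promoters held at least 1. The 3 windows were rich in G and C, at 76.3%, 73.7% and 67.7%, against a median of 52.7% over all promoters. These are letters in a short window and say nothing of sites elsewhere in the genes.

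Smo, the membrane protein that passes the signal into the cell, gave different results at its probe sets. The dimmer of the pair (1427048_at) read 574.9, 475.3 and 432.4 in wild-type and 354.2, 387.2 and 340.7 in mutant pads. All 3 mutant values lay below all 3 wild-type values, by a log2 difference of -0.43 (SE 0.17, 95% interval -0.82 to -0.04). The unadjusted limma p was 0.0355 and the adjusted p = 0.925 over all probe sets, and an exact permutation test gave p = 0.1, the smallest it can give here. The brighter probe set (1427049_s_at) read 757.8, 695.6 and 774.7 in wild-type and 658, 727.2 and 764.5 in mutant pads. Those groups overlapped, and the difference was -0.052 (SE 0.15, limma adjusted p = 0.995). The suffix of this probe set marks, in the maker's naming, probes that can match more than 1 transcript. Within arrays the dimmer minus the brighter probe set was -0.58 ± 0.22 in wild-type and -0.96 ± 0.15 in mutant pads, without overlap (exact permutation p = 0.1, adjusted p = 0.2 over the 4 genes compared in this way). The lower level of Smo in the mutant was therefore seen at 1 of its 2 probe sets, and it did not pass limma after adjustment. For the distance between them the permutation test decides nothing, since a smallest possible p of 0.1 cannot pass 0.05.

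**Figure D2:**
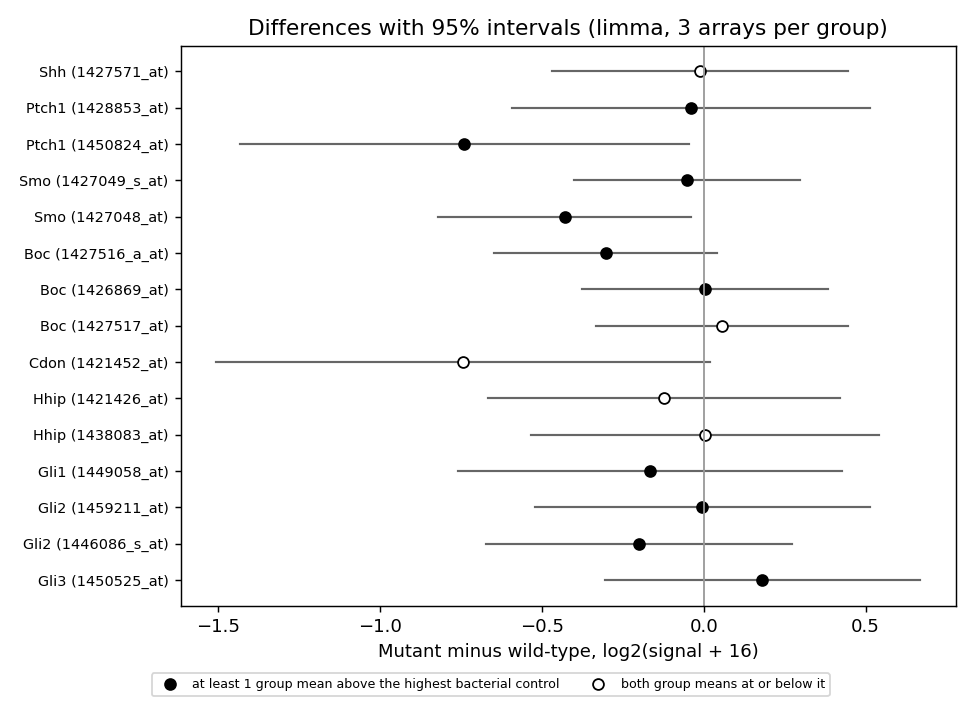
Mutant minus wild-type difference of each member probe set on the log2(signal + 16) scale (points) with its 95% interval from limma, 3 arrays per group. Open circles have both group means at or below the highest bacterial control. The intervals of 1427048_at (Smo) and 1450824_at (Ptch1) leave out 0, and 0 of the 15 passed after adjustment over all probe sets.

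Boc, a cell surface protein of the immunoglobulin family that binds Hedgehog ligand, was read by 3 probe sets that did not move together. The brightest (1427516_a_at) read 385, 454 and 404.6 in wild-type and 330.4, 326.4 and 339.7 in mutant pads. The groups did not overlap, and the spread was narrow in both (SD 35.6 and 6.82). The difference was -0.30 (SE 0.15, limma adjusted p = 0.966), and the methods' t-test without adjustment gave p = 0.0122 but a fold under the study's limit of 1.5, with an exact permutation p = 0.1. The next probe set (1426869_at) read 223.8, 236.9 and 229 in wild-type and 197.2, 235.5 and 263.1 in mutant pads, so that the mutant range enclosed the wild-type range and the difference was 0.0035 (SE 0.16). The last (1427517_at) read 1 to 5.2 on the 6 arrays, in the range of the bacterial controls. Within arrays, the second minus the first of these probe sets was -0.81 ± 0.08 in wild-type and -0.50 ± 0.18 in mutant pads, again without overlap (exact permutation p = 0.1, adjusted p = 0.2).

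Cdon, the relative of Boc that shares its co-receptor role, was near background. Its probe set (1421452_at) read 8.9, 35 and 38.2 in wild-type and 7.6, 4.2 and 14.8 in mutant pads. Only wild-type replicates 2 and 3 exceeded 33.8, all 3 mutant arrays were under it, and wild-type replicate 1 read within the mutant range. The difference of -0.74 (SE 0.33, unadjusted p = 0.0548, limma adjusted p = 0.965) became -1.10 without wild-type replicate 1 and -0.13 with signals floored at 32, since most readings lie under that floor. Hhip, which binds Hedgehog ligand at the cell surface and keeps it from Ptch1, read 31, 35.5 and 17.8 in wild-type and 22.9, 33.8 and 16.7 in mutant pads at its brighter probe set (1421426_at). At the dimmer one (1438083_at) it read 20.9, 23.9 and 8.6 in wild-type and 22.2, 17.8 and 12.3 in mutant pads. Only 1 of these 12 readings exceeded 33.8, so the Hhip differences of -0.12 (SE 0.23) and 0.0042 (SE 0.23) bear on background. On both probe sets the lowest value of each group was that of its replicate 3 array.

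The wider set of Hedgehog-binding co-receptors was led by Gas1, a membrane-anchored protein that aids Shh binding. At its brightest probe set Gas1 read 3295.9, 4059.4 and 3629.2 in wild-type and 1855.4, 2259 and 3567.9 in mutant pads. Mutant replicates 1 and 2 lay below all wild-type arrays, and mutant replicate 3 lay among them. The difference was -0.56 (SE 0.25, limma adjusted p = 0.966), or -0.83 without both replicate 3 arrays, while at the other 2 Gas1 probe sets it was -0.13 and -0.25 with overlapping groups. Among the glypicans, heparan sulfate proteins of the cell surface, Gpc4 read 616.1 ± 86.6 and 522.6 ± 87.7 and Gpc6 286.1 ± 22.3 and 362.9 ± 144.2. Gpc3, named after its values were seen, read 1309.1, 1038.8 and 588.1 in wild-type and 1588, 1733.5 and 396.5 in mutant pads, so the low values were those of the replicate 3 arrays in both genotypes. Lrp2, a large endocytic receptor, read 21.6 ± 3.04 and 17.3 ± 3.93, under the limit of background. Of the 5 measured co-receptors, 2 were higher, 3 lower and 0 passed.

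The Gli factors, which carry the signal to the genome, were all above background and overlapped between genotypes at every probe set. Gli1, itself a target and often used as a readout of the pathway, read 193.1, 127.7 and 131.2 in wild-type and 118, 183.7 and 101 in mutant pads (1449058_at). One array of each genotype, wild-type replicate 1 and mutant replicate 2, stood above the others, and the remaining 4 lay between 101 and 131.2. The difference was -0.17 (SE 0.25, 95% interval -0.76 to 0.43, limma adjusted p = 0.995), and leaving out wild-type replicate 1 made it 0.0084, and leaving out mutant replicate 2 made it -0.39.

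Gli2, the main activator in skin, read 700, 827.7 and 1178 in wild-type and 958.4, 776.6 and 909.4 in mutant pads at its brighter probe set (1459211_at). The mutant values lay inside the wild-type range, and the difference was -0.0044 (SE 0.22). At the other (1446086_s_at) it read 251.6, 231.6 and 291.3 in wild-type and 266.4, 171.3 and 238.4 in mutant pads. The difference there was -0.20 (SE 0.20, limma adjusted p = 0.993). On both probe sets the highest reading was that of wild-type replicate 3 and the lowest mutant reading that of replicate 2. Gli3, the main repressor, read 115.8, 153.9 and 92.4 in wild-type and 149, 145.3 and 117 in mutant pads (1450525_at). Its difference of 0.18 (SE 0.21, limma adjusted p = 0.993) was the largest upward one among the 9 genes, and it was 0.026 without wild-type replicate 3 and 0.35 without wild-type replicate 2. Intervals of 95% for Gli1, Gli2 and Gli3 ran from 0.59 to 1.35, 0.70 to 1.43 and 0.81 to 1.59 of the wild-type level at the brightest probe set. A 1.5-fold decrease was thus inside the interval for Gli1, and a 1.5-fold increase inside that for Gli3.

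**Figure D3:**
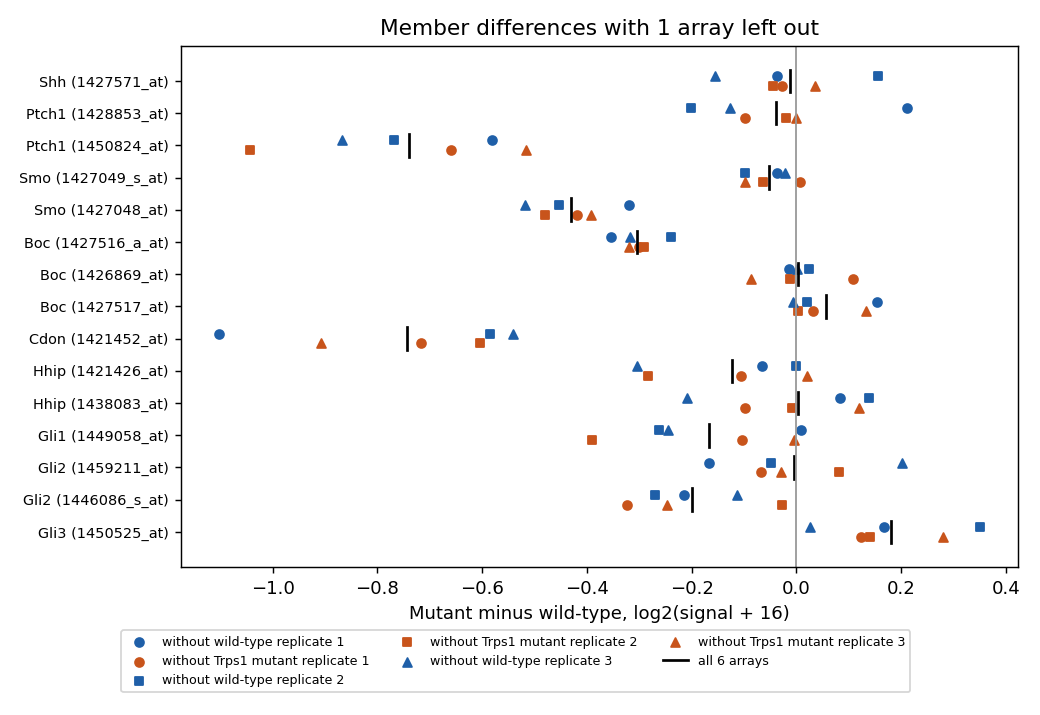
Mutant minus wild-type difference of each member probe set, log2(signal + 16), with all 6 arrays (black bar) and with each array left out in turn (blue for a wild-type, orange for a mutant array). Values at Smo 1427048_at and Boc 1427516_a_at stay to the left of 0, which must be so where groups do not overlap. Those at Cdon, Ptch1 1450824_at and Gli2 1446086_s_at also stay to the left of 0. Those at Ptch1 1428853_at run from -0.20 to 0.21.

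At their brightest probe sets, 8 of the 9 genes had a difference below 0 and 1 above, with a median of -0.052 against 0.00017 over all 12393 genes. With 1 array left out this median ran from -0.16 (without wild-type replicate 3) to -0.0050 (without mutant replicate 3), and 6 or 7 of the 9 genes were lower. In 0 of the 9 was the highest of the 6 readings that of a mutant array. It was that of wild-type replicate 1 in 2 genes, replicate 2 in 4 and replicate 3 in 3, while over all genes these arrays held the highest reading in 12%, 11.7% and 23%. The 9 include Shh, Hhip and Cdon, whose order of arrays lies in the background, and the spread of the list median between arrays of a group (SD 0.12) was larger than the median difference. Ptch1 and Gli1, which both respond to the signal, were set against each other over the 6 arrays. Their log2 signals gave Pearson r = 0.563 (exact permutation p = 0.292) and Spearman rho = 0.371 (exact permutation p = 0.497), the only relation computed. Without wild-type replicates 1 and 2, the arrays farthest from the Ptch1 median, r = -0.081. Those arrays hold the highest and the lowest Ptch1 reading, so leaving them out narrows its range, and this r decides nothing.

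The genes whose pattern over the 6 arrays was most like Ptch1, among 9444 genes with a mean above background, were Wnt10b (r = 0.976), Zbed4 (r = 0.975) and Acvr2b (r = 0.968). Wnt10b, a Wnt ligand of the placode, read 86.1, 59.2 and 60.3 in wild-type and 66.4, 64.7 and 64.8 in mutant pads, and like Ptch1 it was highest in wild-type replicate 1. For Gli1 they were Btbd3 (r = 0.987), Sart3 (r = 0.986) and Ube3c (r = 0.973), and for Shh, whose readings are background, Rab28 (r = 0.992), Inca1 (r = 0.985) and Zfp354b (r = 0.959). Of the 9444 genes compared, 27 exceeded r = 0.9 with Ptch1, 41 with Gli1 and 24 with Shh, and these values describe 6 arrays only.

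Genes that act between Smo and the Gli factors were read above background on every array at their brightest probe sets, with small differences there. Dimmer probe sets of Numb, Csnk1a1, Tulp3, Evc and Btrc read under the limit on at least 1 array. Of 13 measured genes of the primary cilium and of signal transduction, 9 were higher, 4 lower and 0 passed, with differences of -0.26 to 0.35. Sufu, the inhibitor that holds Gli proteins in the cytoplasm, had a wild-type signal of 250.1 ± 26.2 and a mutant signal of 206.0 ± 20.3, with overlapping groups (difference -0.26, SE 0.16). At its other, dimmer probe set the Sufu difference was 0.074. Ift140, Ift57 and Kif3a, parts of the transport machinery of the cilium, differed by 0.35, 0.30 and 0.22, each with overlapping groups. Of 13 genes for kinases and ubiquitin ligases that process Gli proteins, 8 were higher, 5 lower and 0 passed. Csnk1e, a casein kinase, read 720.2, 593.6 and 602.2 in wild-type and 941.9, 781.4 and 938.5 in mutant pads, all 3 mutant arrays above all wild-type arrays (difference 0.46, SE 0.17, limma adjusted p = 0.920). The groups did not overlap in 1 of these 13 genes, against 10.4% of all genes. At the other Csnk1e probe set the difference was 0.18 with overlapping groups. Gsk3b and Prkaca, further kinases that act on Gli proteins, differed by 0.34 and -0.21, with overlapping groups. For Csnk1d the brightest probe set gave 0.20, while the other 4 gave -0.16 to -0.065, and the groups overlapped at all of them.

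**Figure D4:**
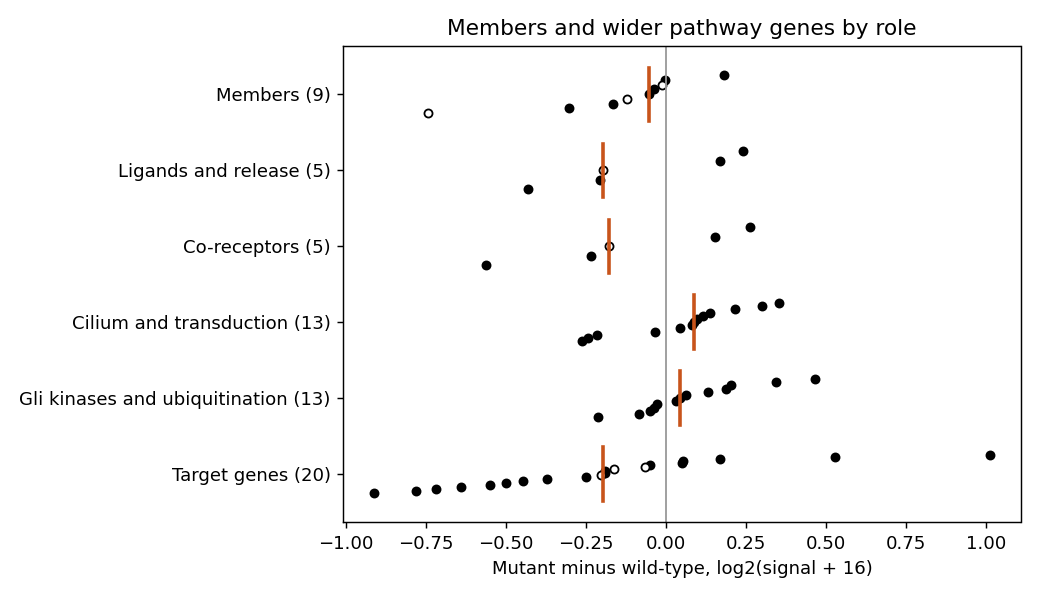
Mutant minus wild-type difference, log2(signal + 16), of each measured gene at its brightest probe set, by role, with the number of genes in brackets and the median of each role as an orange bar. Open circles have both group means at or below the highest bacterial control. The medians run from -0.20 (ligands and release, target genes) to 0.086 (cilium and transduction), and 0 genes passed limma.

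Genes known as Hedgehog targets in mesenchyme or other tissues were lower in the mutant more often than higher, and 0 of 20 passed. Of the 20, 15 were lower and 5 higher, with a median of -0.20 against 0.00017 over all genes. The lower ones include Foxl1, Nkx2-2 and Cdk6, whose group means were both under the limit of background. Only 13 of the 20 were above that limit on every array. An unadjusted p under 0.05 was found for 4 of 20 (Foxf1, Mycn, Foxd1 and Osr1), against 5.04% of all genes, and the groups did not overlap in 7, against 10.4%. Mutant values lay below all wild-type values in 6, against 4.83% of all genes, and above them in 1, against 5.54%. The target list was chosen with earlier results of these data known, so its counts are a description and no test. Mycn, a transcription factor of proliferating progenitors, read 520.4, 474.5 and 602.9 in wild-type and 286.3, 289.7 and 449.1 in mutant pads (difference -0.64, SE 0.22, limma adjusted p = 0.916). Mutant replicate 3 came nearest to the wild-type range. The other 2 Mycn probe sets were dimmer and overlapped, with differences of -0.33 and 0.19.

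Foxd1, a forkhead gene of facial mesenchyme, read 432.7, 178.2 and 145.1 in wild-type and 113.5, 119 and 104.8 in mutant pads. Wild-type replicate 1 stood far above the other arrays, and the difference of -0.91 (SE 0.36, limma adjusted p = 0.929) was -0.46 without it. Cyclin D1 (Ccnd1), which drives entry into the cell cycle, read 1259.6, 886.9 and 808.4 in wild-type and 743, 652.6 and 723.3 in mutant pads. The difference was -0.45 (SE 0.20), or -0.26 without wild-type replicate 1. Ccnd1 differed by -0.35 without overlap and by -0.29 with overlap at its other 2 probe sets. Snai1, a repressor of epithelial genes, read 308.9 ± 48.1 and 233.4 ± 9.72, and the Notch ligand Jag2 read 128.9 ± 3.29 and 106.0 ± 7.64, without overlap at either. At the other Jag2 probe set the difference was 0.075, with overlapping groups. The brightest probe set of cyclin D2 (Ccnd2) read 3518 ± 177.8 and 3083 ± 235.1 without overlap, but at its other 6 probe sets the groups overlapped, with differences of -0.14 to 0.30.

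Osr1, a zinc finger factor of mesenchyme, read 650.8, 356 and 439.3 in wild-type and 384.6, 279 and 172.4 in mutant pads. Its groups overlapped (difference -0.78, SE 0.33, limma adjusted p = 0.945). Foxf1, a forkhead target known from gut and lung mesenchyme, went the other way, at 26, 12.8 and 10.7 in wild-type and 46.1, 78.7 and 28.9 in mutant pads. Only mutant replicates 1 and 2 exceeded the limit of background, and the difference was 1.01 (SE 0.31, limma adjusted p = 0.843). Wild-type replicate 1, high for Ptch1, Gli1, Foxd1, Osr1 and Ccnd1, held the highest reading in 5 of the 20 target genes, against 12% of all genes, and wild-type replicate 3 in 8 of 20, against 23%. Being highest on wild-type replicate 1 was not particular to Hedgehog genes. That array was also highest for the epidermis markers Krt5 (1282.6), Krt15 (447.6), Cdh1 (382.3), Epcam (417.1) and Perp (418.5). For the markers Krt14, Krt8, Krt18 and Trp63 a mutant array was highest. Any link was not tested. Without wild-type replicate 1 the median of the target list was -0.25, with 17 of 20 lower, and without both replicate 3 arrays it was -0.16, with 13 of 20 lower.

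**Figure D5:**
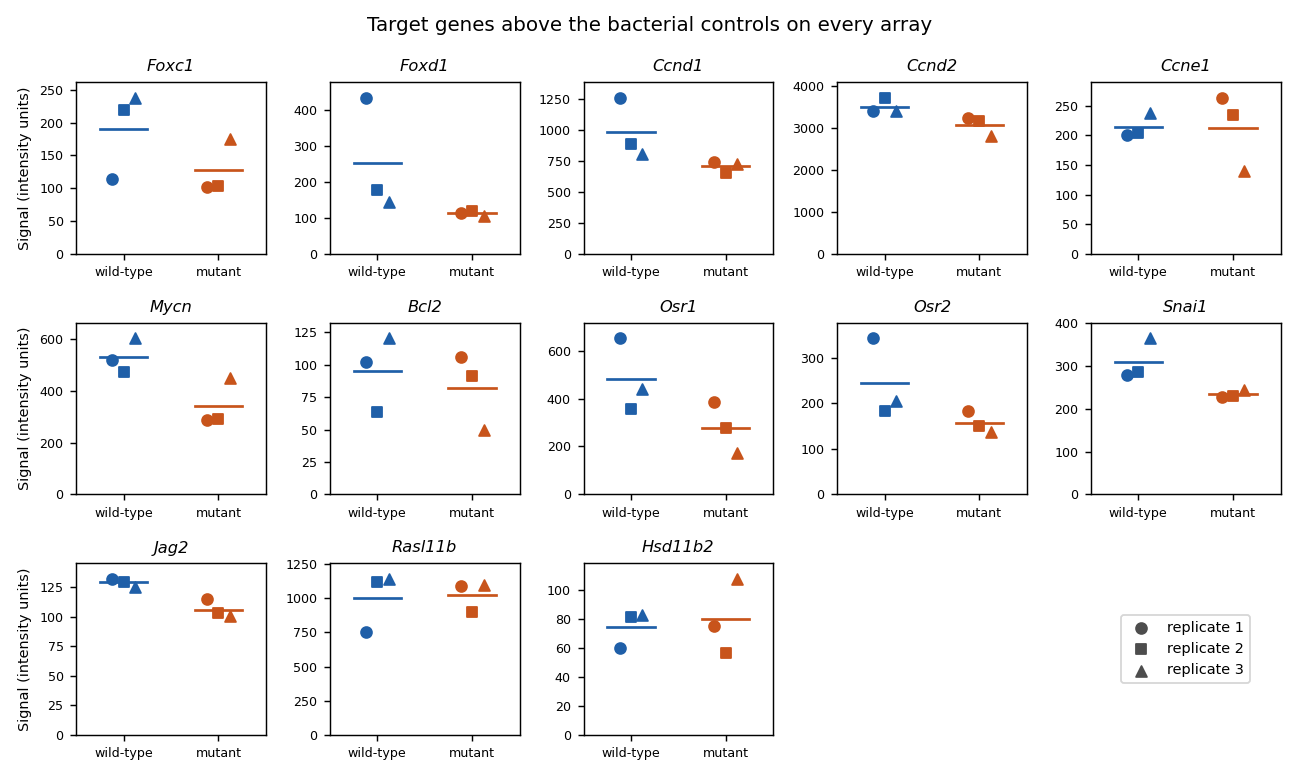
Signal (intensity units, linear axes from 0) of the 13 target genes above the bacterial controls on every array, by genotype. Points are arrays with 1 marker shape per replicate number, and lines are group means. In Foxd1 wild-type replicate 1 reads 432.7, far above the other 5 arrays. The groups do not overlap in Foxd1, Ccnd1, Ccnd2, Mycn, Snai1 and Jag2.

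Markers of the cell types of the pad are given beside these values, and 0 of them passed limma in either direction (adjusted over all probe sets). The summed signal of 7 facial mesenchyme markers was 8945 to 9518 in wild-type and 9586 to 10247 in mutant pads, higher in the mutant without overlap, although at each of the 7 genes the groups overlapped. Most of that difference lay in Col1a2, with means of 3040.5 and 3765.9, and the list held 4 higher and 3 lower genes with a median of 0.018. The marker lists were chosen with earlier results of these data known, so their counts describe these arrays and are no test. Of 8 placode markers, 4 lay lower in the mutant without overlap, against 4.83% of all genes. They were Lhx2 (limma adjusted p = 0.626), Sox21 and Dkk4 (both 0.653) and Edar (0.985), the last under the limit of background on 5 of 6 arrays. The summed signal of all 8 was 549.4 to 1055 in wild-type and 439 to 819.5 in mutant pads, and it overlapped. The 9 epidermis markers summed to 3084 to 4889 and 2843 to 4322, with overlap, and the 5 neuron markers to 923.3 to 1027 and 1410 to 1723, without overlap. Of those 5, Stmn2 and Nefm lay above all wild-type values in the mutant, against 5.54% of all genes, and Elavl3 below, against 4.83%. Their part in the differences of the Hedgehog genes was not tested.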

How the data were processed

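Total RNA of whole whisker pads was labelled with biotin and hybridised to 6 MOE430A arrays, per the labels' protocols. The deposited value table holds 1 linear signal intensity per probe set and array, and the sources used here do not name the method that made the authors' deposited intensities. Equal 2% trimmed means show that arrays were scaled. The authors' deposited table of 65 probe sets gives a ratio (fold) and normalized log2 group values from GeneSpring GX 10.0, per the submitters' design text, and was used only to look for members.

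The 64 control probe sets were left out. Signals were used as deposited, and 16 was added before log2, which pulls differences of dim genes toward 0. Probe sets were named by the platform annotation, with symbols renewed through gene numbers (GRCm38.p6). A gene with several probe sets is represented, where 1 value is needed, by the brightest. The genotypes were compared with limma 3.58.1 in R 4.3.3 (a two-sided moderated test, with lmFit, eBayes and no covariates) over 22626 probe sets, with Benjamini-Hochberg adjustment and a threshold of 0.05. Fits were tested on simulated data, where 32 of 100 changes of log2 fold 1 and 71 of 100 of log2 fold 2 were called. There, 4 unchanged probe sets were called too. Single values and the distance between probe sets were tested by exact permutation. Named genes are all members, Trps1, Xist, Eif2s3y and up to 4 genes per role of the wider pathway list by smallest unadjusted p. They also include the 3 genes most like Shh, Ptch1 and Gli1, and genes needed to describe a list. Of 70 wider pathway genes 56 were measured. Members and lists were chosen with earlier results of these data known. Alternatives were other normalizations, offsets, priors, a filter on dim probe sets, the methods' t-test, a replicate block and leaving out arrays. Precision is limited by 3 arrays per group.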

Additional observations from a re-analysis of the deposited data

How the results depend on the processing

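The count of member probe sets that passed limma stayed at 0 in all alternatives run. These included the methods' t-test with Benjamini-Hochberg adjustment and the replicate block. The filter on dim probe sets took out Shh, Cdon, Hhip, Boc 1427517_at and Ptch1 1450824_at, so that fit did not test them. Over all probe sets the count was 0, but 2 without the 7542 dimmest, 1 with a trended and robust prior, and 0 to 1 with an array left out (1 without mutant replicate 3), with 0 members among them. A fit with the replicate block gave 0. Members at the study's threshold numbered 0, but 1 with limma's unadjusted p in place of the t-test, the dim Ptch1 probe set at -0.74, and 0 to 1 with an array left out, Cdon at -1.10 without wild-type replicate 1 and that Ptch1 probe set at -1.04 without mutant replicate 2. The labels do not say that replicate numbers pair embryos, and deviations of same-numbered arrays correlated at 0.038, 0.069 and 0.14 over all probe sets and at 0.07, 0.12 and 0.21 over the 16290 with a mean above the bacterial controls. In neither was every pair over 0.1, so the block stands as an alternative.

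Directions changed only for differences that are small or of background readings, and 0 of those passed. Under quantile normalization Boc 1426869_at was -0.020 and Shh 0.00303, under equal medians that Boc probe set was -0.0088 and Hhip 1438083_at -0.0080, and with an offset of 1 Shh was 0.062. Without both replicate 3 arrays Boc 1426869_at was -0.089, Hhip 1438083_at -0.095, Gli2 1459211_at 0.18 and the median of the wider pathway list 0.040, against -0.036 with all arrays. With 1 array left out the ranges that crossed 0 were -0.086 to 0.11 for Boc 1426869_at, -0.0054 to 0.15 for Boc 1427517_at, -0.20 to 0.21 for Ptch1 1428853_at, -0.39 to 0.0084 for Gli1, -0.30 to 0.020 for Hhip 1421426_at, -0.21 to 0.14 for Hhip 1438083_at, -0.16 to 0.16 for Shh, -0.17 to 0.20 for Gli2 1459211_at, -0.099 to 0.0070 for Smo 1427049_s_at and -0.074 to 0.013 for the median of the wider pathway list. The cause was not tested. The settings for list medians were added after seeing the data. The median of the target list stayed below 0 throughout, at -0.34 with an offset of 1 and -0.33 to -0.12 with an array left out. Probe sets constant at the floor of 32 (Shh, Boc 1427517_at, Hhip 1438083_at) have no value there.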
